A study of Saccharomyces cerevisiae with 16 samples.

Results

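The genes examined were *HSP104*, *HSP26*, *HSP42*, *BTN2* and *CUR1* of the budding yeast *Saccharomyces cerevisiae*, taken by symbol from the annotation. The annotation holds 6002 protein-coding ORFs on the 16 nuclear chromosomes, of which these are 5. Occupancy by RNA polymerase II (RNAPII) was profiled by ChIP-seq with the antibody 8WG16, which recognizes the repeated tail of Rpb1, the largest subunit of the enzyme. The 4 groups, with 2 replicates each, were *ubc9-6* cells heat shocked at 37 °C for 12 min, *ubc9-6* cells left untreated at 30 °C, WT cells given the same heat shock, and untreated WT cells. WT was the W303a strain. The *ubc9-6* strain has the same background, and at its *UBC9* locus, which encodes the SUMO-conjugating enzyme, it carries tandem copies of the mutant allele *ubc9-1* with the marker *TRP1*. The mutation impairs sumoylation and is present in all cells of the culture at both temperatures. The study calls the temperature of the heat shock non-permissive for growth of *ubc9-6*, and that of the untreated cells permissive. Heat shock of *ubc9-6* was therefore also a shift of the mutant to its non-permissive temperature. The part of this shift was not tested in any comparison that includes heat shocked *ubc9-6* cells, the difference between the strains in the heat shock response among them. The 8 immunoprecipitates had a peak list each, in which a peak is a region enriched over input chromatin, and the 8 inputs entered only as the controls of the peak calling.

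Protein aggregates that form when yeast is heated are taken apart by Hsp104, a ring-shaped ATPase that pulls single polypeptides through its central pore together with the Hsp70 chaperones. Hsp26 and Hsp42 are small heat shock proteins, which bind unfolding proteins without using ATP and keep them in a form that Hsp104 and Hsp70 can later recover. Btn2 and Cur1 are related sorting factors. Btn2 gathers misfolded proteins into deposits in the cytosol or at the nucleus, and Cur1 takes part in sorting to the nucleus. Genes of this kind are known targets of the heat shock factor Hsf1, which binds repeats of the heat shock element, and several are also targets of Msn2 and Msn4, which bind the stress response element.

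The DNA before the 5 start codons was searched for both elements on both strands, and the stretches that hold the matches are shown because the edges of the RNAPII peaks described below fall inside or outside them. A heat shock element was counted as GAANNTTC or TTCNNGAA and a stress response element as AGGGG or CCCCT. The sequences are those of the RefSeq R64 assembly, which has the coordinates of sacCer3. Each stretch runs from 10 bases before the first match to 10 bases after the last match within 500 bp of the start codon. Matches are in capitals, and overlapping heat shock elements make up the longer runs of capitals.
*HSP104*, chrXII:88311-88465, plus strand: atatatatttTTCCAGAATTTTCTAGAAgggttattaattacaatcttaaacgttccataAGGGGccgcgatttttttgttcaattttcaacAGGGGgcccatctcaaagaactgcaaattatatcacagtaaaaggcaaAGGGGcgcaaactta
*HSP26*, chrII:381541-381718, plus strand: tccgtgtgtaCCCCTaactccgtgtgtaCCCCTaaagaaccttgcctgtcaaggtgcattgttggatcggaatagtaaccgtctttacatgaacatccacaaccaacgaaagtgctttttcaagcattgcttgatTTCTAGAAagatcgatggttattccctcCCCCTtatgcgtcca
*HSP42*, chrIV:806368-806453, plus strand: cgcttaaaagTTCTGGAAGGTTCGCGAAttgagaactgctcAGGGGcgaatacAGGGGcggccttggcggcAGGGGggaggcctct
*BTN2*, chrVII:772100-772392, plus strand: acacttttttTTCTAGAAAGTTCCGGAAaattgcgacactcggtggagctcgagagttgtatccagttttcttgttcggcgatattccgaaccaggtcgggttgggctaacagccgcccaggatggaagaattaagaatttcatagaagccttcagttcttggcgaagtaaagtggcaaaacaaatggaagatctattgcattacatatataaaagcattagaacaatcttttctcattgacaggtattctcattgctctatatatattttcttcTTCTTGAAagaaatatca
*CUR1*, chrXVI:843064-843091, plus strand: agaaaaaaggGAACTTTCctactcaaaa

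*HSP104* and *HSP42* each held 3 overlapping heat shock elements and 3 stress response elements in the 500 bp. *BTN2* held 4 heat shock elements, of which 3 overlapped, and no stress response element. *HSP26* held 1 heat shock element and 3 stress response elements, and *CUR1* held 1 heat shock element only. Of the 6000 ORFs with such a window, 35.2% held a heat shock element and 1.78% held 3 or more, while 34.1% held a stress response element and 1.83% held 3 or more. Both elements were found in 11.2% of the windows, and in those of *HSP104*, *HSP26* and *HSP42*. In the shorter window from 250 bp before to 50 bp after the start codon, only *HSP42*, with 3, *BTN2*, with 1, and *CUR1*, with 1, held a heat shock element. There a heat shock element was found in 22.6% of 6001 windows. The stress response element in this shorter window was found 3 times for *HSP42* and 2 times for *HSP104*. A match is a description of the letters and does not show binding.

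The lists held 1545 and 1512 peaks in *ubc9-6* heat shock, 1522 and 1451 in *ubc9-6* untreated, 1540 and 1496 in WT heat shock, and 1495 and 1525 in WT untreated cells. They covered between 23.0% and 25.4% of the nuclear genome, with median peak widths between 1268 and 1488 bp. The lists do not give the reads behind them, so their depth is unknown and counting error cannot be given. Peaks were ranked within each list by the authors' mean fold enrichment, with rank 1 the highest, and an ORF took the rank of the peak that covered most of it. Of the 3 strain markers, the SUMO gene *SMT3* was under peaks in full in all 8 lists. *TRP1*, which *ubc9-6* carries as a marker, was covered for between 0.988 and 1.0 of its length in *ubc9-6*, against 0.874 to 0.927 in WT. *UBC9* had no peak except in *ubc9-6* heat shock replicate 1, where 0.779 of it was covered, and this does not check the allele.

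All 5 genes lay under peaks from start to stop codon in every list, with 1 exception, since *BTN2* had no peak in WT untreated replicate 2. Presence of a peak therefore separated no groups at these genes. Among all ORFs with a peak in at least 1 of the lists compared, a switch of occupancy in both replicates (at least 0.5 of the ORF covered in both lists of one group and in neither of the other) was found in 12.0% for heat shock in *ubc9-6* and 4.59% for heat shock in WT. The shares were 15.1% for *ubc9-6* against WT in untreated cells and 12.5% after heat shock. None of the 5 genes met this rule in any of these comparisons. What varied between the groups was how high in its list the peak stood and how far it reached past the gene. A peak call is an average over the culture, so fewer cells with RNAPII on a gene and less RNAPII in each cell cannot be told apart.

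Within *ubc9-6*, all 5 genes ranked higher in both heat shock lists than in both untreated lists. The same held in WT for *HSP26*, *HSP42* and *BTN2*, while *HSP104* and *CUR1* overlapped between heat shock and untreated WT lists. Of the ORFs with a peak in at least 1 of the 4 lists, 33.0% of 3631 ranked higher after heat shock in this sense in *ubc9-6* and 39.0% ranked lower. In WT, 19.7% of 3489 ranked higher and 24.0% ranked lower. No gene of the 5 ranked lower after heat shock by this rule in either strain. Differences were taken between mean log2 ranks, where a negative value means nearer the top of the list. The median difference between heat shock and untreated over the 5 genes was -3.41 in *ubc9-6*, against 0.05 over all ORFs with a peak, and -2.85 in WT, against 0.04. With 2 lists in each group and labels permuted within strain over both strains, the smallest p that the exact permutation test allows is 0.0556, and within a strain it is 0.333, so no comparison here could reach 0.05. For each of the 5 genes 7 contrasts of rank were computed, and the exact p-values given are unadjusted. The same 7 contrasts were computed for upstream and for downstream reach in the genes with a peak in every list. Only some of the reach values are printed.

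**Figure D1:**
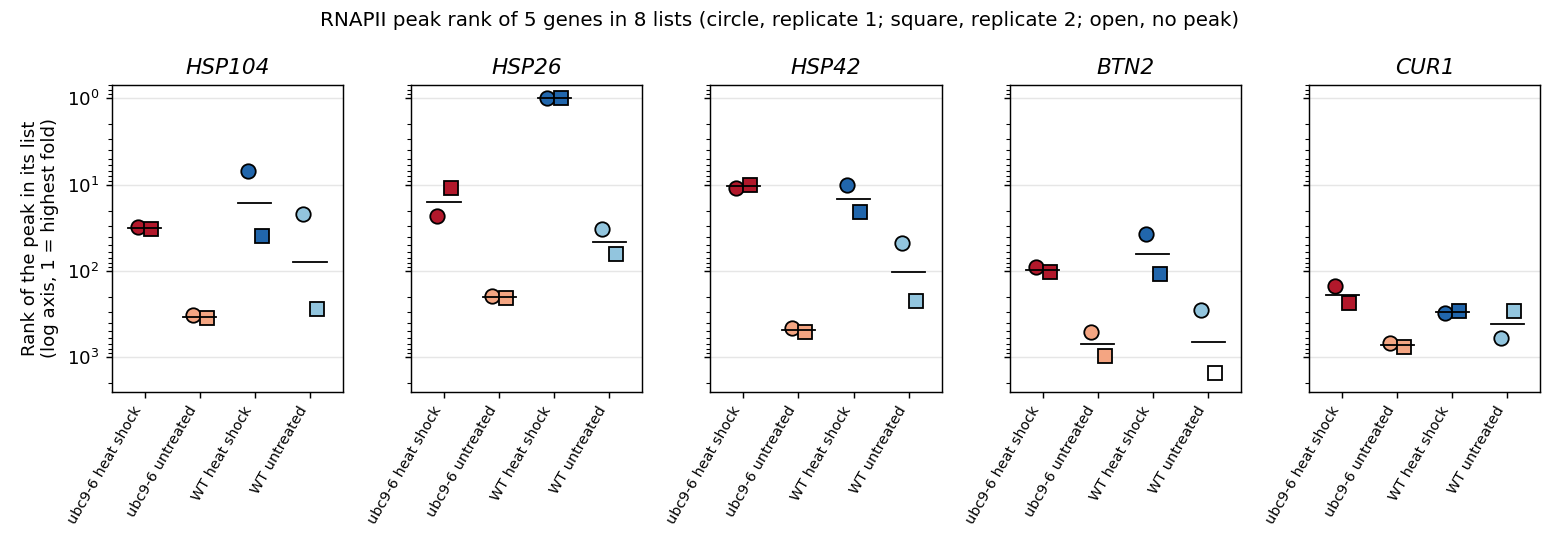
Rank of the RNAPII peak over each of the 5 genes (log axis, rank 1 at the top) in the 8 lists, by group, with replicate 1 as a circle, replicate 2 as a square, the black line at the mean log2 rank, and an open symbol for the list without a peak over *BTN2*, set 1 past the last rank. In *ubc9-6*, the heat shock symbols stand above the untreated ones for all 5 genes, while *HSP104* and *CUR1* overlap between the WT groups.

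*HSP104*, the disaggregase gene (YLL026W, chrXII:88623-91349 on the plus strand), ranked 31 and 33 in the *ubc9-6* heat shock lists, against 324 and 356 in the untreated *ubc9-6* lists. In WT it ranked 7 and 39 after heat shock, against 22 and 276 in untreated cells. The *ubc9-6* groups were far apart, whereas WT untreated replicate 1 stood above WT heat shock replicate 2. The mean fold enrichment of its peak was 6.08 and 5.86 in *ubc9-6* heat shock, against 2.40 and 2.17 in *ubc9-6* untreated lists. In WT the fold was 11.4 and 6.62 after heat shock, against 7.96 and 2.45 in untreated cells. These are the peak caller's values and depend on the library, so they show the spread and carry no test here. The difference in mean log2 rank, heat shock minus untreated, was -3.41 in *ubc9-6* and -2.24 in WT, and over both strains it was -2.82 (exact permutation test, two-sided, p = 0.111). Without WT untreated replicate 1 the WT difference was -4.06, and without WT heat shock replicate 2 it was -3.48. In both of these cases the remaining WT lists did not overlap. Without WT heat shock replicate 1 it was -0.999, and without WT untreated replicate 2 it was -0.41, and the lists overlapped in both. The WT value thus depended on which of the 4 lists were used.

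The peak over *HSP104* was much wider than the gene in every list. It was 10544 and 10474 bp wide in *ubc9-6* heat shock, against 8491 and 10891 bp in *ubc9-6* untreated lists. In WT it was 4878 and 10465 bp wide after heat shock, against 4530 and 10287 bp in untreated cells. The gene filled between 25.0% and 60.2% of its peak. Most of the extra length lay upstream, where the peak took in *ISA1*, a mitochondrial iron-sulfur protein gene, in all 8 lists and *TPO1*, a polyamine transporter gene, in 6 of them. The narrow peaks were those of WT replicate 1, in both treatments, and there *HSP104* also ranked higher than in the other WT list of the same treatment. Downstream, the peak ended between 292 and 1033 bp after the stop codon.

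*HSP26* (YBR072W, chrII:382030-382674 on the plus strand) had the top-ranked peak of the whole list in both WT heat shock lists, against ranks 33 and 64 in the untreated WT lists. In *ubc9-6* it ranked 23 and 11 after heat shock, against 196 and 205 in untreated cells. The groups overlapped in neither strain. The fold was 7.11 and 7.78 in *ubc9-6* heat shock against 3.17 and 2.94 in *ubc9-6* untreated lists, and 14.2 and 16.3 in WT heat shock against 6.84 and 4.61 in WT untreated lists. The log2 rank difference between heat shock and untreated lists was -3.66 in *ubc9-6* and -5.52 in WT, and -4.59 over both strains (exact permutation test, two-sided, p = 0.0556). In WT, 3 of the 3489 ORFs had a lower difference, and in *ubc9-6* 76 of 3631 had one. ORFs under the same peak took the same rank, so YBR071W, YBR072C-A and *RDH54* shared the WT value of *HSP26*. The difference between the strains in the *HSP26* response, *ubc9-6* minus WT, was 1.87 (exact permutation test, two-sided, p = 0.444). For this contrast, here and below, strain labels were permuted within treatment. Its p-value thus assumes no strain difference in either treatment and is not an exact test of equal responses. By log2 fold over the list median, with its sign turned, the difference between the strains was 0.12. With rank as a percent of the peaks it was -9.26 percentage points, opposite in direction.

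*HSP42* (YDR171W, chrIV:806621-807748 on the plus strand), whose product promotes the sequestering of misfolded proteins, ranked 11 and 10 in *ubc9-6* heat shock lists, against 454 and 512 in *ubc9-6* untreated lists. In WT it ranked 10 and 21 after heat shock, against 48 and 226 in untreated cells. The heat shock lists of the strains were thus close together, and the untreated lists were not. The fold was 8.51 and 7.89 in *ubc9-6* heat shock against 1.90 and 1.74 in *ubc9-6* untreated lists, which is 5.42 and 5.12 times the median peak of those lists against 1.22 and 1.15 times. In WT the fold was 10.3 and 8.44 after heat shock, against 5.94 and 2.65 in untreated cells. The log2 rank difference, heat shock minus untreated, was -5.52 in *ubc9-6* and -2.85 in WT, and -4.18 over both strains (exact permutation test, two-sided, p = 0.0556). Without WT untreated replicate 2 the WT value was -1.73. In *ubc9-6*, 8 of the 3631 ORFs had a lower difference than *HSP42*, and *SUP35*, under the same peak, had the same difference. The difference between the strains in this response was -2.68 on the log2 scale (exact permutation test, two-sided, p = 0.167), and -1.56 without WT untreated replicate 1. With peaks ranked by fold above 1 times width, which gives wide peaks more weight, it was -0.14.

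**Figure D2:**
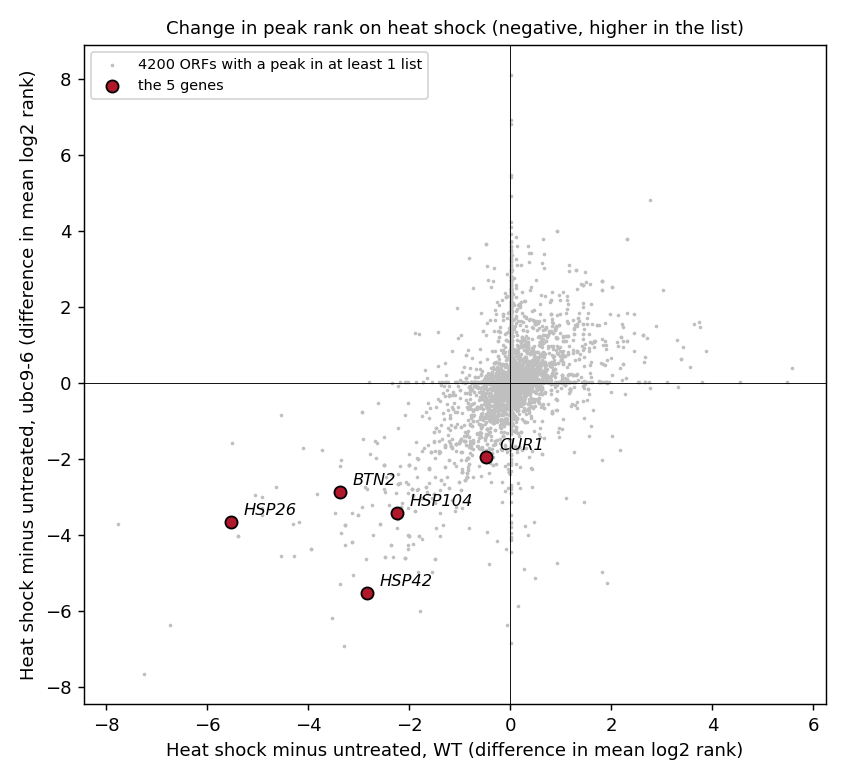
Difference in mean log2 peak rank, heat shock minus untreated, in WT (x axis) and in *ubc9-6* (y axis) for 4200 ORFs with a peak in at least 1 list (gray), with the 5 genes in red. *HSP26* lies farthest to the left of the 5 at -5.52 in WT, *HSP42* lowest at -5.52 in *ubc9-6*, and *CUR1* nearest to no difference on both axes.

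*BTN2* (YGR142W, chrVII:772454-773686 on the plus strand) ranked 90 and 104 in *ubc9-6* heat shock, against 514 and 977 in *ubc9-6* untreated lists. In WT it ranked 37 and 110 after heat shock, against 287 and no peak in untreated cells. The heat shock lists stood above the untreated ones in both strains. The fold was 4.09 and 3.65 in *ubc9-6* heat shock against 1.79 and 1.40 in *ubc9-6* untreated lists, and 7.34 and 4.09 in WT heat shock against 2.46 in the WT untreated list with a peak. With the missing peak set 1 past the last rank, the log2 rank difference, heat shock minus untreated, was -2.87 in *ubc9-6* and -3.37 in WT, and -3.12 over both strains (exact permutation test, two-sided, p = 0.0556). Without WT untreated replicate 2, the list with no peak, the WT value was -2.17.

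*CUR1* (YPR158W, chrXVI:843262-844020 on the plus strand), the relative of *BTN2*, stood lowest of the 5 genes in 6 of the 8 lists. It ranked 151 and 234 in *ubc9-6* heat shock, against 687 and 753 in *ubc9-6* untreated lists. In WT it ranked 305 and 290 after heat shock, against 593 and 289 in untreated cells. The *ubc9-6* groups did not overlap, whereas both WT heat shock ranks fell between the untreated WT ranks. The fold was 3.19 and 2.57 in *ubc9-6* heat shock against 1.59 and 1.50 in *ubc9-6* untreated lists, and 2.38 and 2.47 in WT heat shock against 1.72 and 2.42 in WT untreated lists. The log2 rank difference was -1.94 in *ubc9-6* and -0.48 in WT, and -1.21 over both strains (exact permutation test, two-sided, p = 0.167). Without WT untreated replicate 2 the WT difference was -0.996, and without WT untreated replicate 1 it was 0.04. The difference between the strains in the response, *ubc9-6* minus WT, was -1.46 (exact permutation test, two-sided, p = 0.0556), and -0.94 without WT untreated replicate 2. With peaks ranked by fold above 1 times width, which gives wide peaks more weight, it was -0.22 (exact p = 0.833).

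The order of the genes within a list was partly shared. *HSP26* ranked first of the 5 in 5 lists, *HSP42* in both *ubc9-6* heat shock lists and *HSP104* in WT untreated replicate 1. In *ubc9-6* heat shock lists *HSP42* and *HSP26* stood within ranks 10 to 23, and the ranks of *HSP104* followed at 31 and 33. *HSP104*, *HSP26* and *HSP42* exchanged places between replicates of the untreated WT cells. *BTN2* and *CUR1* filled the last places in every list.

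Strains were then compared at the same temperature. In untreated cells, *HSP104*, *HSP26*, *HSP42* and *CUR1* ranked lower in both *ubc9-6* lists than in both WT lists, where 31.8% of 3946 ORFs did so and 33.3% ranked higher. The median log2 rank difference of the 5 genes, *ubc9-6* minus WT, was 2.12 in untreated cells, against 0.06 over all ORFs with a peak. It was 2.12 for *HSP104* and *HSP26*, 2.21 for *HSP42* and 0.80 for *CUR1* (exact permutation test, two-sided, p = 0.333 each, the smallest possible). *BTN2* differed by 0.10, since its *ubc9-6* ranks of 514 and 977 lay between the WT rank of 287 and the missing peak. These values depended on the untreated WT list used. Without WT untreated replicate 1 they were 0.30 for *HSP104*, 1.09 for *HSP42*, -1.11 for *BTN2* and 1.32 for *CUR1*. Without WT untreated replicate 2 they were 3.95 for *HSP104*, 3.33 for *HSP42*, 1.30 for *BTN2* and 0.28 for *CUR1*. *HSP26* stayed between 1.65 and 2.60 in these cases. *HSP104*, *HSP26*, *HSP42* and *BTN2* all stood higher in WT untreated replicate 1 than in replicate 2, and *CUR1* stood lower. The chaperone genes *SSA4*, *HSP78*, *CPR6* and *SSA2*, described below, also stood higher in replicate 1. Strain differences of these genes in untreated cells rest on the same WT lists, so they are not separate observations.

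After heat shock, *HSP26* ranked lower in both *ubc9-6* lists than in both WT lists, and *CUR1* ranked higher, where 36.7% of 3686 ORFs ranked lower and 30.2% ranked higher. The log2 rank difference, *ubc9-6* minus WT, was 3.99 for *HSP26* and -0.66 for *CUR1* (exact permutation test, two-sided, p = 0.333 each). The *CUR1* value was -0.35 without *ubc9-6* heat shock replicate 1. *HSP104*, *HSP42* and *BTN2* overlapped between the strains, with differences of 0.95, -0.47 and 0.60. Each of these 3 values depended on 1 list. Without WT heat shock replicate 1 they were -0.29, -1.002 and -0.19, and without WT heat shock replicate 2 they were 2.19, 0.07 and 1.39. Averaged over untreated and heat shocked lists, the strains differed by 3.06 for *HSP26* (exact permutation test, two-sided, p = 0.0556), 1.54 for *HSP104* (exact p = 0.278), 0.87 for *HSP42* (exact p = 0.333), 0.35 for *BTN2* (exact p = 0.722) and 0.07 for *CUR1* (exact p = 0.889). With peaks ranked by fold above 1 times width, the *HSP26* value was -0.90 (exact p = 0.333), opposite in direction.

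The lower rank of *HSP26* and *HSP42* in untreated *ubc9-6* cells went with wider peaks. The peak over *HSP26* was 13311 and 11680 bp wide there, against 3013 and 2991 bp in WT untreated cells, so that the gene filled 4.85% and 5.52% of it, against 21.4% and 21.6%. After heat shock it was 4999 and 5160 bp in *ubc9-6*, against 3128 and 3115 bp in WT. The *ubc9-6* untreated peak ran upstream without a break over *TAT1* and *BAP2*, which encode amino acid permeases, to *TIP1*, a cell wall mannoprotein gene. *TIP1* and *BAP2* lay under peaks in full in all 8 lists, and in the other 6 lists they had a peak of their own, of rank 57 to 117. The upstream reach of the *HSP26* peak in *ubc9-6* exceeded that of WT by 5134 bp on average over both treatments (exact permutation test, two-sided, p = 0.0556). Its heat shock difference over both strains was -3288 bp (exact permutation test, two-sided, p = 0.333).

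The peak over *HSP42* was 6764 and 6787 bp wide in *ubc9-6* untreated lists, against 2551 and 2104 bp in WT untreated lists, and 2716 and 2685 bp in *ubc9-6* heat shock, against 2739 and 3166 bp in WT heat shock. In untreated *ubc9-6* cells the peak continued downstream over *SUP35*, the translation termination factor gene, *ARG82* and *HMO1*, which encodes a high mobility group protein at ribosomal protein genes, and ended in *RSM24*, of which it covered 0.0875 and 0.0906. *SUP35* was covered in full in those 2 lists and for 0.0398 to 0.126 of its length in the others. *HMO1* was covered in full in every list, in the other 6 under a peak of its own at ranks 662 to 963. A fold averaged over a merged peak also counts its neighbors, and how far this set the ranks was not tested. Peaks were also ranked on fold above 1 times width, an alternative chosen after seeing the data. In it a wide peak ranks higher by construction, so it cannot measure the part of the neighbors. By this ranking the strain difference in untreated cells was -2.61 for *HSP26*, opposite in direction to its difference by mean fold, and 0.40 for *HSP42*, whose groups then overlapped. The *HSP26* difference between heat shock and untreated lists in *ubc9-6* was 0.18 by this ranking, also opposite in direction. *HSP42* kept a difference of -2.44 over both strains (exact permutation test, two-sided, p = 0.0556).

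**Figure D3:**
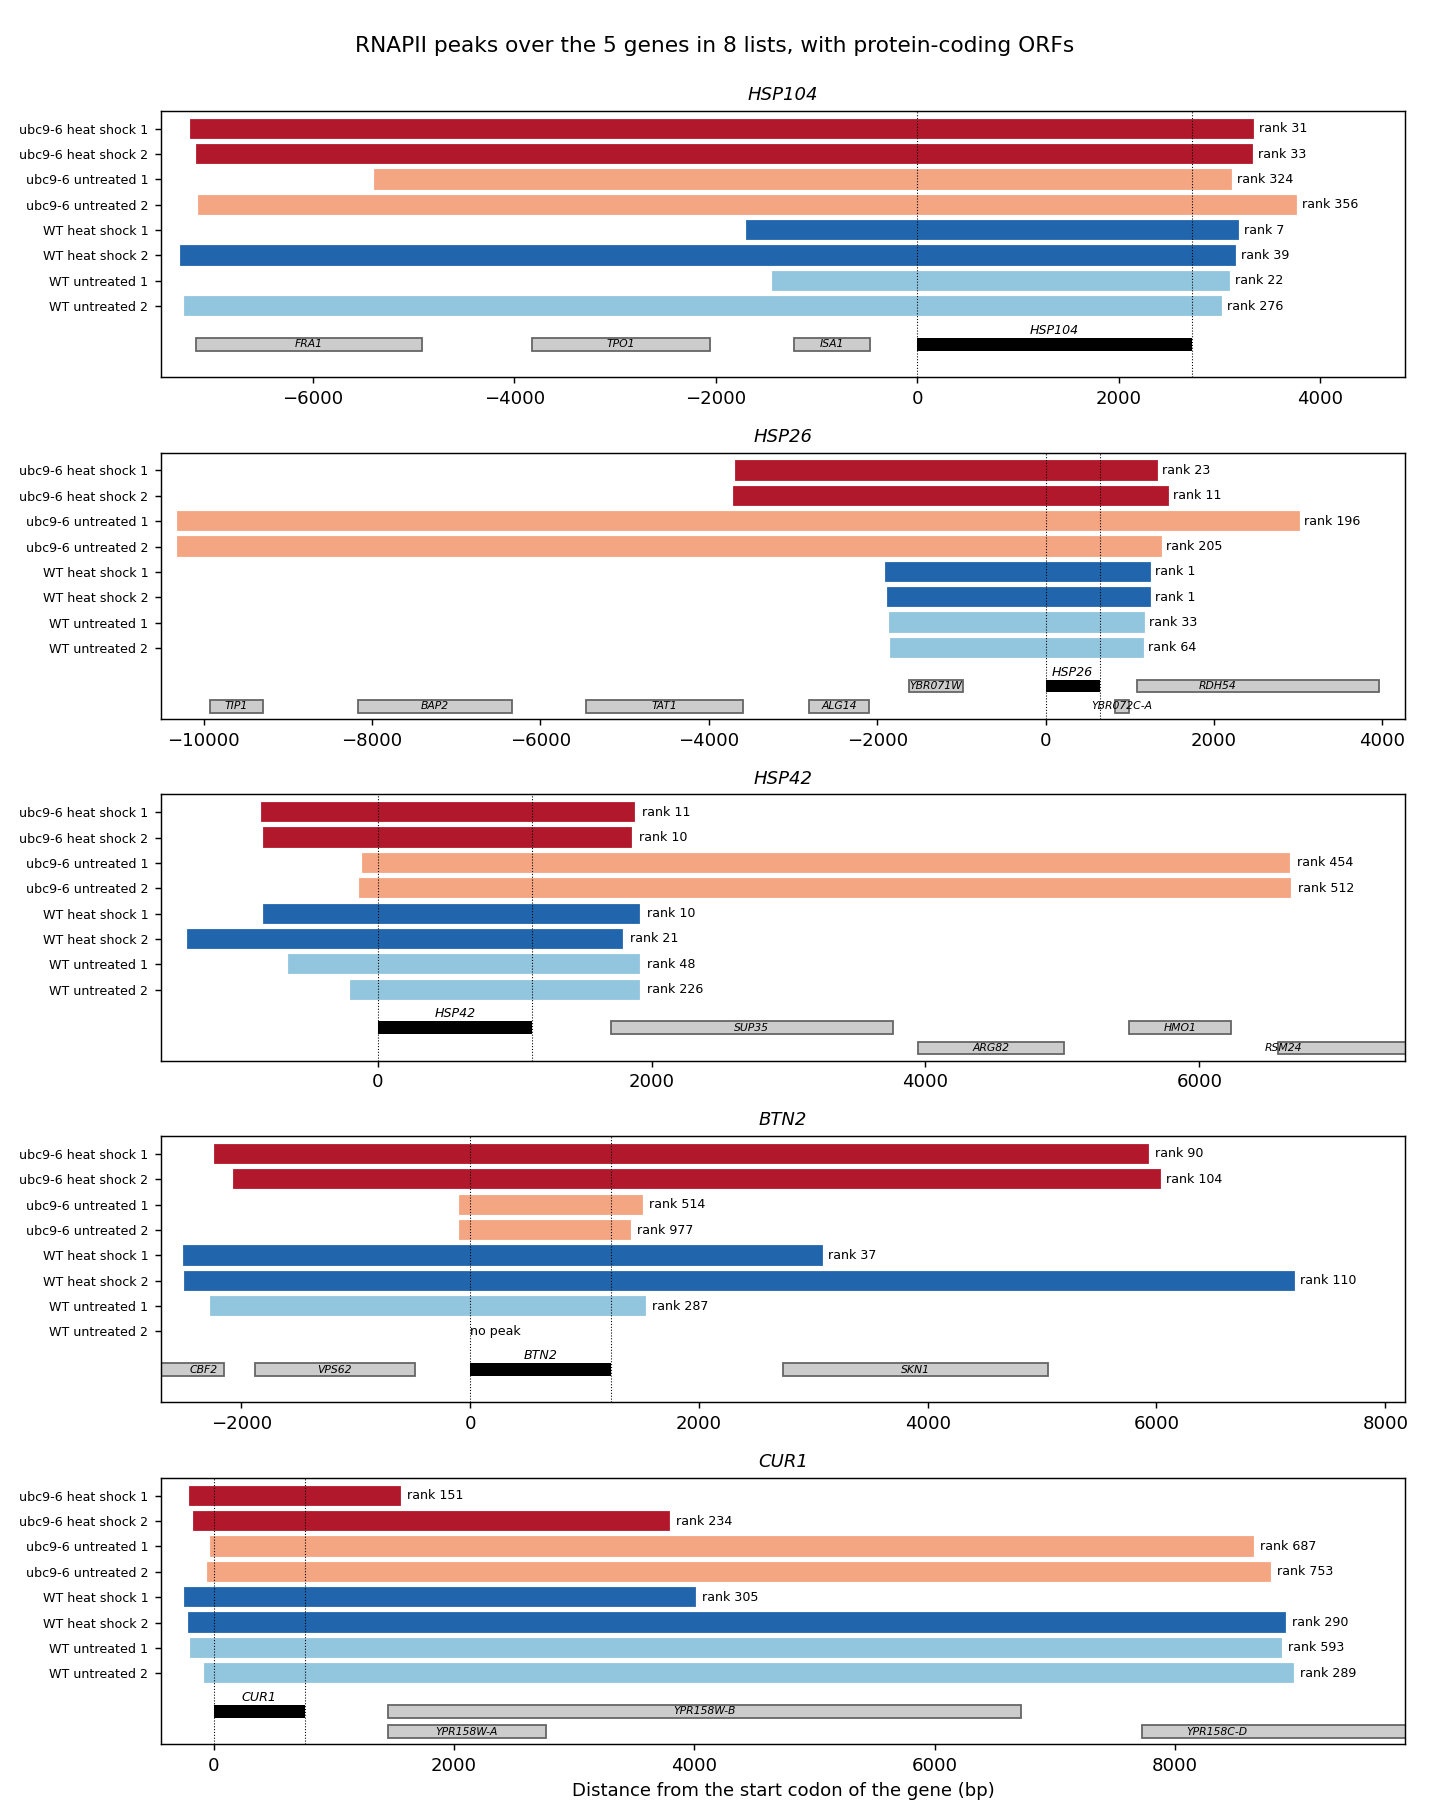
Extent of the peak that covers each gene in each list (colored bars, with the peak's rank), as distance from the start codon in bp, over the gene itself (black) and the neighboring ORFs (gray, plus strand above minus strand, except YPR158W-A, which is on the plus strand and drawn below YPR158W-B). The *HSP26* and *HSP42* peaks of untreated *ubc9-6* cells take in several neighboring ORFs, while the *BTN2* peak of the same cells is close to the gene itself.

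*BTN2* had the opposite form. In *ubc9-6* untreated lists its peak was 1596 and 1494 bp wide, and it held no other ORF, so the gene filled 77.3% and 82.5% of it. In *ubc9-6* heat shock the peak was 8154 and 8092 bp wide, and it took in *VPS62* upstream and *SKN1*, a gene of beta-glucan synthesis, downstream. In WT the peak was 5575 and 9692 bp wide after heat shock, against 3797 bp in the untreated list with a peak. *VPS62* lay under the *BTN2* peak in full in all 4 heat shock lists and in WT untreated replicate 1. It was uncovered in both *ubc9-6* untreated lists. By fold above 1 times width, the heat shock difference of *BTN2* was -4.96 over both strains, larger in size than the -3.12 by mean fold.

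The *CUR1* peak extended mostly downstream, into the ORFs YPR158W-A and YPR158W-B, which the annotation gives as the Gag and Gag-Pol proteins of a retrotransposon. Such elements occur in many near-identical copies, so reads there may have been placed among copies, and how they were treated is not given in the sources used here. The peak reached 794 and 3028 bp past the stop codon of *CUR1* in *ubc9-6* heat shock, against 7891 and 8029 bp in *ubc9-6* untreated lists. In WT it reached 3244 and 8155 bp after heat shock, against 8121 and 8220 bp in untreated cells. The gene filled 43.3% and 19.2% of its peak in *ubc9-6* heat shock lists and between 8.32% and 17.9% in the other 6. By fold above 1 times width, the heat shock difference of *CUR1* over both strains was 0.02, against -1.21 by mean fold, so the direction of this difference was not kept.

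The upstream edges were then set beside the motif matches. For *HSP42*, whose heat shock elements lie 243 to 226 bp before the start codon, the peak began 847 and 832 bp before the start codon in *ubc9-6* heat shock, against 108 and 128 bp in *ubc9-6* untreated lists. In WT it began 829 and 1381 bp before the start codon after heat shock, against 645 and 194 bp in untreated cells. All 4 heat shock peaks therefore included the elements, as did that of WT untreated replicate 1, and the other 3 untreated peaks began downstream of them. The upstream reach differed by 703.5 bp between heat shock and untreated lists over both strains (exact permutation test, two-sided, p = 0.0556). The strain difference in upstream reach, *ubc9-6* minus WT, was -283.5 bp over both treatments (exact p = 0.167). Downstream, the reach of *HSP42* differed by -2428.5 bp for heat shock and by 2381.5 bp for strain (exact p = 0.167 each).

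The overlapping heat shock elements of *BTN2*, 344 to 327 bp before the start codon, lay inside the heat shock peaks, which began 2230 and 2064 bp before the start codon in *ubc9-6* and 2503 and 2494 bp in WT. The *ubc9-6* untreated peaks both began 93 bp before it, past these elements and just before the single element 79 to 72 bp from the start codon. WT untreated replicate 1 had a peak that began 2269 bp before the start codon. For *CUR1*, with its element 188 to 181 bp before the start codon, the peak began 199 and 162 bp before the start codon in *ubc9-6* heat shock, against 25 and 47 bp in *ubc9-6* untreated lists. In WT it began 238 and 206 bp before the start codon after heat shock, against 191 and 72 bp in untreated cells. The reach was longer after heat shock by 117.5 bp over both strains, and the difference *ubc9-6* minus WT was -68.5 bp over both treatments (exact permutation test, two-sided, p = 0.0556 each). The elements of *HSP104* and *HSP26* lay under the peak in all 8 lists, since these peaks began 1435 bp or more before the start codon. For *HSP104* the upstream reach differed by 535 bp for heat shock over both strains (exact permutation test, two-sided, p = 0.389). It differed by 2290.5 bp for strain over both treatments (exact p = 0.5).

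**Figure D4:**
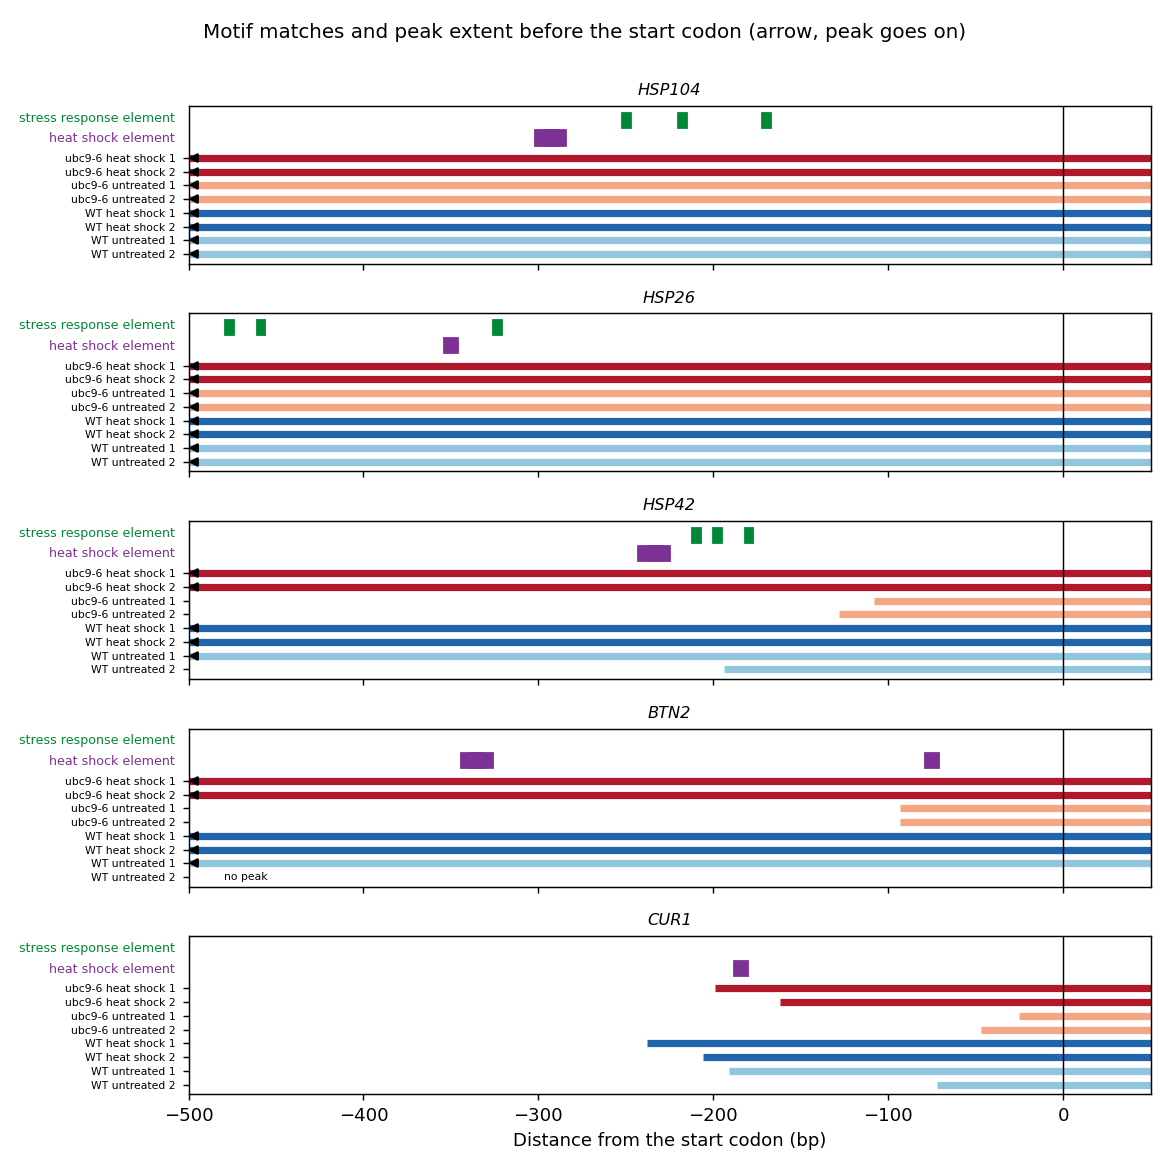
Matches to the heat shock element (purple) and the stress response element (green) in the 500 bp before each start codon, and the part of each peak that lies there (colored lines by group, an arrow where the peak goes on), as distance from the start codon in bp. For *HSP42* and *BTN2*, the *ubc9-6* untreated peaks begin within 128 bp of the start codon, downstream of the overlapping elements.

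The other chaperone and stress genes were described by counts, from lists chosen with earlier results of these data known. Of 31 chaperone and co-chaperone genes, 24 of the 29 with a peak ranked higher after heat shock in both lists in *ubc9-6* and 4 ranked lower, where 33.0% of all ORFs with a peak ranked higher and 39.0% lower. In WT, 24 of 28 ranked higher and 1 lower, where the shares over all ORFs were 19.7% and 24.0%. The median log2 rank difference was -2.15 in *ubc9-6* and -1.68 in WT. Against the same shares, of 24 general stress genes, of which 23 matched the annotation by symbol, 22 ranked higher and 1 lower in *ubc9-6*, and 16 ranked higher and 0 lower in WT, with medians of -2.63 and -1.34. In untreated cells, *ubc9-6* against WT, 9 of 28 chaperone genes ranked lower and 2 higher, and 13 of 22 general stress genes ranked lower and 1 higher. Over all ORFs 31.8% ranked lower and 33.3% higher, so the chaperone genes that ranked lower were close to the general share. The chaperone genes that ranked higher were below their share, and the general stress genes that ranked lower were above theirs. These counts were not tested. After heat shock, 11 of 28 chaperone genes ranked lower in *ubc9-6* and 5 higher, while 6 of 23 general stress genes ranked lower and 10 higher. Over all ORFs 36.7% ranked lower and 30.2% higher. The chaperone genes that ranked lower were thus again close to the general share, and those that ranked higher were below it.

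The chaperone genes outside the 5 with the largest mean difference over both strains were *SSA4*, a heat-induced Hsp70, *HSP78*, the mitochondrial relative of *HSP104*, *CPR6*, an Hsp90 co-chaperone, and *SSA2*, a constitutive Hsp70. *HSP78* ranked 35 and 41 in *ubc9-6* heat shock, against 749 and 1101 in *ubc9-6* untreated lists, and 24 and 51 in WT heat shock, against 86 and 441 in WT untreated lists. *SSA4* ranked 67 and 60 in *ubc9-6* heat shock and had no peak in *ubc9-6* untreated lists, and it ranked 18 and 31 in WT heat shock, against 200 and 1059 in WT untreated lists. *SSA2* ranked 3 and 4 in *ubc9-6* heat shock against 32 and 63 in *ubc9-6* untreated lists, and 6 and 8 in WT heat shock against 21 and 82 in WT untreated lists. In both strains the heat shock lists of these 3 genes stood above the untreated lists. Among the general stress genes *HSP30*, a plasma membrane protein gene, ranked 167 and 108 in *ubc9-6* heat shock against 1016 and 1120 in *ubc9-6* untreated lists, and 83 and 30 in WT heat shock, with no peak in untreated WT cells.

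Genes whose ranks ran most like those of each of the 5 were found by the mean absolute difference in log2 rank over the 8 lists, among at least 1630 ORFs with a peak in all lists and not under the same peak. For *HSP104* these were *HXK1*, a hexokinase gene, and its neighbors *RET2* and *RPN12*, which lie under the same peak as *HXK1* and share its difference of 0.62. For *HSP42* the nearest was *TSL1*, a subunit of trehalose synthase, at 0.49. *TSL1* ranked 12 and 14 in *ubc9-6* heat shock against 380 and 428 in *ubc9-6* untreated lists, and 29 and 38 in WT heat shock against 55 and 254 in WT untreated lists. For *BTN2* the nearest was *CPR6* at 0.39, with ranks of 76 and 90 in *ubc9-6* heat shock against 752 and 1045 in *ubc9-6* untreated lists, and 55 and 65 in WT heat shock against 288 and 957 in WT untreated lists. *HSP26* had its nearest at a larger distance, *TMA10* and its neighbor YLR326W at 1.01, and *CUR1* had *PRX1*, a mitochondrial peroxiredoxin gene, and *SEF1*, which share a peak, at 0.38.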

How the data were processed

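RNAPII ChIP-seq reads were trimmed with Trim Galore and Cutadapt, aligned to sacCer3 with Bowtie2 version 2.3.5, and broad peaks were called with MACS2 version 2.1.1.20160309 against input at a q-value cutoff of 0.1, each replicate on its own, as the study's methods and processing notes describe. Each list deposited by the authors gives peak positions, and per peak a mean fold ratio to control with its −log10 p-value and −log10 q-value. Number and width of peaks can grow with depth, and such a list keeps no value below its threshold. The study compared reads over ORFs, and such a model was not fitted here.

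ORFs ran from start to stop codon in the R64 annotation, whose nuclear chromosomes match sacCer3 in name and length. Peaks were ranked within a list by fold, and an ORF without a peak was set 1 past the last rank. An ORF ranked higher or lower where the 2 lists of one group did not overlap those of the other. Mean log2 ranks and peak reach were compared by exact permutation tests, two-sided, over 36 arrangements within strain or treatment and 6 for 2 lists against 2. For the difference between strains in the heat shock response, strain labels were permuted within treatment, which assumes no strain difference in either treatment. The labels give replicates as separate samples. A p-value is the share of label arrangements with a difference at least as large in size, and it does not measure the spread between replicates. No 2 lists were identical. The ranking and counting were tested on simulated data, where each peak had the bounds of an ORF, the same in all lists. Merged peaks and edges that differ between lists were not covered by that test. Python 3.11.15, numpy 2.4.6, pandas 2.3.3 and matplotlib 3.10.9 were used.

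The 5 genes and both gene lists were chosen with earlier results of these data known. Other genes were named by rule: the 4 of each list with the largest mean rank difference, the 3 ORFs most alike in rank to each gene, and ORFs under the same peak. Not all of these are printed. Alternatives were other rankings, stricter peaks, other overlaps and promoter windows, a replicate block and each list left out.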

Additional observations from a re-analysis of the deposited data

Results flagged for a closer look

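*CUR1* was singled out because its strain difference in peak rank pointed in opposite directions in untreated and heat shocked cells, in every list. The difference in mean log2 rank, *ubc9-6* minus WT, was 0.80 in untreated cells, where both *ubc9-6* lists ranked it lower, and -0.66 after heat shock, where both ranked it higher. The difference between these values was -1.46. Its exact permutation p of 0.0556 (two-sided), the smallest the design allows, follows from the rule that singled out the gene, so it adds no support. With peaks ranked by fold above 1 times width, the heat shock value was 0.78 and the difference between the values was -0.22 (exact permutation p = 0.833). The *CUR1* peak reached 794 and 3028 bp past the stop codon in *ubc9-6* heat shock, against 3244 and 8155 bp in WT heat shock, and the part of this width in the result was not tested further.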

How the results depend on the processing

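Ranking by −log10 p or −log10 q, stricter peak thresholds and other ways of assigning a peak changed no count of genes by over 1.5 times and no direction. Fold over the list median gave 2 genes lower in *ubc9-6* after heat shock in place of 1 and 3 in place of 4 in untreated cells, with *HSP104* lost, and turned 2 small strain differences, to 0.10 for *HSP42* after heat shock and -0.07 for *BTN2* in untreated cells. Rank as a percent of the peaks turned the strain difference of *BTN2*, to -3.80 percentage points over both treatments and -9.08 in untreated cells. It also turned the difference between the strains in the heat shock response of *HSP26*, to -9.26 percentage points. Ranking by fold above 1 times width, chosen after seeing the data, changed most. Over both strains, the heat shock difference was then -3.98 for *HSP104* (exact permutation p = 0.0556) and -1.53 for *HSP26* (exact permutation p = 0.278). The strain difference of *HSP26* was -0.90 (exact permutation p = 0.333), and single comparisons reversed to 0.18 for *HSP26* after heat shock in *ubc9-6*, to -2.61 for *HSP26* between untreated strains, and after heat shock to 0.26 for *HSP42*, 0.78 for *CUR1* and -0.29 for *HSP104* between strains, and to 0.13 for *CUR1* after heat shock in WT. By the same ranking 3 genes stood higher after heat shock in *ubc9-6*, 3 lower in *ubc9-6* after heat shock and 2 lower in untreated *ubc9-6*. Width enters this rank by construction, so the part of peak width in these changes was not tested.

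Leaving out each list in turn gave heat shock differences over both strains of -3.74 to -1.91 for *HSP104*, -4.85 to -4.32 for *HSP26*, -4.74 to -3.63 for *HSP42*, -3.73 to -2.52 for *BTN2* and -1.47 to -0.95 for *CUR1*. Strain differences over both treatments ran from 0.63 to 2.45 for *HSP104*, 2.79 to 3.32 for *HSP26*, 0.31 to 1.43 for *HSP42*, -0.25 to 0.95 for *BTN2* and -0.19 to 0.33 for *CUR1*. Genes higher after heat shock numbered 5 in *ubc9-6* and 3 to 4 in WT, and genes lower in *ubc9-6* numbered 4 to 5 in untreated cells and 1 to 3 after heat shock, with 3 without WT heat shock replicate 2. Directions reversed for *HSP104* (-0.29) and *BTN2* (-0.19) between strains after heat shock without WT heat shock replicate 1 (2.19 and 1.39 without WT heat shock replicate 2), for *HSP42* in the same comparison without WT heat shock replicate 2 (0.07), for *BTN2* between untreated strains without *ubc9-6* untreated replicate 2 (-0.36), and without WT untreated replicate 1 for *BTN2* between untreated strains (-1.11) and for *CUR1* after heat shock in WT (0.041), against 1.30 and -0.996 without WT untreated replicate 2.

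Replicate numbers were shared between groups, but deviations of same-numbered lists from their group means correlated at 0.494 only between the WT groups and at 0.004 to 0.096 otherwise, across 1639 ORFs that are not independent, so the numbers were not taken as pairs. With a replicate block, 4 genes in WT ranked higher after heat shock in both pairs, *HSP104* included, whose difference over both strains was -2.82 (exact permutation p = 0.125, the smallest that 16 arrangements allow).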
